A study of Mus musculus with 6 samples.

Results

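Nts, Insl5, Pyy and Pcsk1 encode 3 peptide hormones of the gut and an enzyme that cuts hormone precursors. They were chosen by gene name from the deposited count table, where each has 1 row of its own, so that the members are 4 of the 2033 rows. RNA was measured in colon tissue of mice exposed long-term to PFOA (perfluorooctanoic acid, a fluorinated compound that persists in the body) and of control mice, with 3 libraries per group. All 6 libraries come from colon. Per the labels, tissue of 6 mice per group was frozen, and no mouse is tied to a library. The p-values thus reflect only how the libraries of a group vary, which may be technical. The labels give no dose, duration, strain, sex or age of the mice and no part of the colon.

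Enteroendocrine cells are scattered hormone-secreting cells of the gut epithelium. Their hormones are made as longer precursors, which prohormone convertases cut at paired basic residues inside secretory granules. The cells differ along the gut: neurotensin is known from the N cells of the ileum, whereas peptide YY and insulin-like peptide 5 are known from L cells, which are numerous in the distal colon and rectum. In these tissue samples, fewer cells of a type and less RNA per cell cannot be told apart.

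Of the 4 genes, Nts and Pcsk1 were higher and Insl5 and Pyy lower in the PFOA libraries. Nts, the neurotensin gene, was listed with no count in any control library, and Insl5 was 126-fold lower in PFOA. Pyy was 8.76-fold lower and Pcsk1 4.13-fold higher. The 4 genes passed the filter on low counts, and all 4 passed edgeR's quasi-likelihood test at an adjusted p of 0.05, as did 100% of the 1608 rows tested. The deposited table holds rows that had been selected for a difference between these groups, and passing the test is therefore a description of the table and no evidence about the 4 genes. By direction, 50.0% of tested rows were called higher and 50.0% lower in PFOA.

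The listed counts of a library summed to between 1771120 and 2269892, which is the total of the listed rows and not the sequencing depth. Levels below are CPM, counts per 1000000 counts of the tested rows after scaling by TMM (trimmed mean of M values). The TMM factors were 0.857 to 0.995 in PFOA and 1.024 to 1.169 in control. Every scaling used here rests on rows that had been selected to differ. Levels and folds are thus relative to the listed rows and not to all RNA of a library. PFOA replicate 1 stood apart from the other PFOA libraries: log2 CPM correlated at 0.953 and 0.951 with PFOA replicates 2 and 3, which correlated at 0.983 with each other. Control replicate 1 also stood apart, at 0.959 and 0.972 with control replicates 2 and 3, against 0.984 between those. Values without each of these libraries are given beside the results of the 4 genes.

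The regions before the start sites of the 4 genes are shown because the genes differed in opposite directions, so that the letters near their starts can be set side by side. Each runs from 250 bases before to 50 bases after a RefSeq start site (build GRCm38.p6), 5′ to 3′ on the gene's strand. Where RefSeq gives more than 1 start, the one nearest to the 5′ end of the deposited row was taken, which lies at that end for Pyy and 114 bases from it for Insl5. The Nts window lies at chr10:102490369-102490668 (minus strand), the Insl5 window at chr4:103026679-103026978 (minus strand), the Pyy window at chr11:102107783-102108082 (minus strand) and the Pcsk1 window at chr13:75089607-75089906 (plus strand). Capitals mark matches on either strand to 5 motifs: TATAA (TATA box), TGACGTCA (cyclic AMP response element), TGANTCA (AP-1 site), TGTTTAC (forkhead site) and TTTATG (a CDX-type site).
Nts: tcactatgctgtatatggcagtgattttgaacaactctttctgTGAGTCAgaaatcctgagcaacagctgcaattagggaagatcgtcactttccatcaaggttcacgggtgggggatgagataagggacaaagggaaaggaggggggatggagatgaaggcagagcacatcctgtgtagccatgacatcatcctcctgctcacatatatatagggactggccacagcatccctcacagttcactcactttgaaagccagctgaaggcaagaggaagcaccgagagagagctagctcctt
Insl5: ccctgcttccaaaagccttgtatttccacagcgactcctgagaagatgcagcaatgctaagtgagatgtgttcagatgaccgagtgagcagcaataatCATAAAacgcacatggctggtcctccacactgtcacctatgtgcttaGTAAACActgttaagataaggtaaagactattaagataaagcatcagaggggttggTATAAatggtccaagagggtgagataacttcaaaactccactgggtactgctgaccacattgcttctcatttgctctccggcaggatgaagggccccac
Pyy: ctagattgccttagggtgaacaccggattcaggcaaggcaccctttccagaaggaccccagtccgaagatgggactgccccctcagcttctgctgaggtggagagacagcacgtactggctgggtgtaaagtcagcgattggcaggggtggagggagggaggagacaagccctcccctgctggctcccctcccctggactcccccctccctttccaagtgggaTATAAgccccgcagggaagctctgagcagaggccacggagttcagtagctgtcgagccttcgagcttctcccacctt
Pcsk1: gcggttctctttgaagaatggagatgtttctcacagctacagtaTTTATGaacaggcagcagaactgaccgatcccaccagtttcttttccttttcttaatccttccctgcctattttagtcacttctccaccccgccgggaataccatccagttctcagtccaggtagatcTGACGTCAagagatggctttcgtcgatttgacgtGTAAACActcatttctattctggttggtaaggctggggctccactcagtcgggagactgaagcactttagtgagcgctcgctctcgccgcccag

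The Nts window held a single exact match, to the AP-1 motif, whose first base lies at -207 from the start site. The AP-1 motif was present in 7.81% of the 32851 RefSeq windows of this length. Near forms of the motifs were not searched for and are not marked, such as the tatatata run of the Nts window. A window without a match may thus hold a near form. The Insl5 window held a TATA motif at -49, which 24.9% of all windows hold, a forkhead motif at -105, which 3.65% hold, and a CDX-type motif at -152, which 11.9% hold. The Pyy window held a TATA motif at -27 and no other. The Pcsk1 window held the cyclic AMP response element at -78, a motif in 1.79% of all windows, a forkhead motif at -44 and a CDX-type motif at -206. Insl5, which was lower in PFOA, and Pcsk1, which was higher, thus shared the forkhead and CDX-type letters. No 2 of these matches overlap, and a match is a run of letters and not a shown binding site.

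Nts (ENSMUSG00000019890.4) encodes the precursor of neurotensin and neuromedin N, peptides that act on gut motility, secretion and fat absorption. The gene is protein-coding with 4 exons and lies on the minus strand of chromosome 10 at 102481756 to 102490486 (mm10). It had 173, 399 and 265 counts in PFOA replicates 1, 2 and 3, against 0, 0 and 0 in the control libraries. Every PFOA library had Nts counts and no control library had one, and PFOA replicate 2 was the highest. The level was 135 ± 48.5 CPM in PFOA (SD, n = 3). With 3 counts taken as the limit for all control libraries together, which covers counting error only, Nts was at least 288-fold higher (edgeR adjusted p = 0.00018). With each library left out in turn, the lower bound lay between 187 and 328. The lowest, without control replicate 3, comes with the smaller control total behind that limit, and the bound was 328 without PFOA replicate 1 and 194 without control replicate 1. Among the 804 tested rows that were higher in PFOA, Nts had the largest fitted log2 fold change. That fitted value depends on the constant added to a group at 0 and is not given as a fold.

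Insl5 (ENSMUSG00000066090.5) encodes a relaxin-family hormone of colonic L cells, whose receptor is Rxfp4. The gene is protein-coding and lies on the minus strand of chromosome 4 at 103017872 to 103026842. It had 4, 11 and 18 counts in PFOA replicates 1, 2 and 3, against 959, 1761 and 1582 in control replicates 1, 2 and 3. The groups did not overlap, and PFOA replicate 1 and control replicate 1 were the lowest of their groups. The level was 5.24 ± 3.13 CPM in PFOA and 679 ± 195 CPM in control (SD, n = 3 each). edgeR gave a log2 fold change of -6.98 with an SE of 0.52 (n = 3 per group, adjusted p = 6.65e-05), and it was -6.66 without PFOA replicate 1 and -7.32 without control replicate 1. By size it was rank 35 of the 804 tested rows that were lower in PFOA. With 33 counts in all, the PFOA group still had Insl5 reads in each library.

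Pyy (ENSMUSG00000017311.15) encodes peptide YY, the L cell hormone that slows gut transit and curbs appetite. The gene is protein-coding and lies on the minus strand of chromosome 11 at 102106676 to 102107832. It had 259, 500 and 516 counts in PFOA replicates 1, 2 and 3, against 4859, 3086 and 3568 in control replicates 1, 2 and 3. The groups did not overlap, and control replicate 1, the lowest control library for Insl5, was the highest for Pyy. The level was 205 ± 57.3 CPM in PFOA and 1830 ± 474 CPM in control (SD, n = 3 each). edgeR gave a log2 fold change of -3.15 with an SE of 0.32 (n = 3 per group, adjusted p = 0.000208), or -2.97 without PFOA replicate 1 and -3.05 without control replicate 1, at rank 166 of the 804 lower rows.

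Pcsk1 (ENSMUSG00000021587.5) encodes a prohormone convertase of endocrine and neural cells, which among other substrates cuts proglucagon to glucagon-like peptides. The gene is protein-coding with up to 14 exons and lies on the plus strand of chromosome 13 at 75089826 to 75134861. It had 392, 729 and 656 counts in PFOA replicates 1, 2 and 3, against 105, 179 and 160 in control replicates 1, 2 and 3. The groups did not overlap, and replicate 1 was the lowest library in both. The level was 286 ± 68.7 CPM in PFOA and 70.1 ± 17.8 CPM in control (SD, n = 3 each). edgeR gave a log2 fold change of 2.03 with an SE of 0.30 (n = 3 per group, adjusted p = 0.000824), or 2.17 without PFOA replicate 1 and 1.72 without control replicate 1. It was rank 312 of the 804 rows that were higher.

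**Figure D1:**
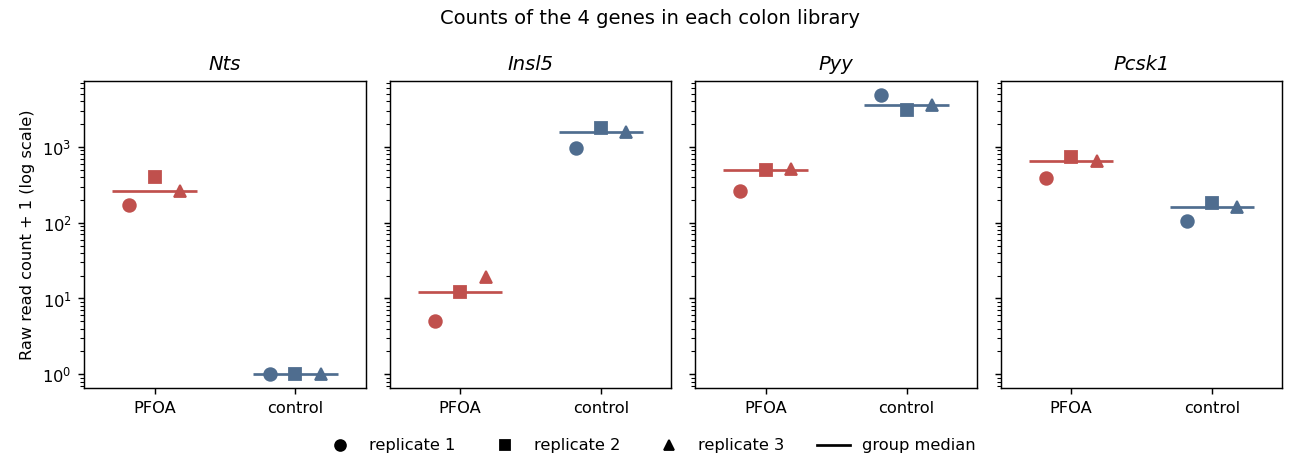
Raw read counts plus 1 (log axis) of Nts, Insl5, Pyy and Pcsk1 in each library, with PFOA at the left and control at the right of each panel; symbols mark the replicate and bars the group median. The groups do not overlap in any panel, with Nts at 173 to 399 counts in PFOA and at 0 in control.

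In all 4 panels of the count plot, PFOA replicate 1 is the lowest PFOA library. That the groups did not overlap was also true of 97.1% of all rows of the table. None of the 12 alternatives tried ended a call or turned the direction of any of the 4 genes. Of 684 such values for other named genes, 668 kept their call as well, and none turned direction. All rows had been selected to differ, so that keeping a call also describes the table and is no evidence about the 4 genes.

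Levels can be compared between the genes per kilobase of the deposited gene model, which for these 4 rows equals the length of all GENCODE M21 exons. In PFOA, the order was Pyy at 325 ± 90.9, Nts at 108 ± 38.9, Pcsk1 at 51.1 ± 12.3 and Insl5 at 7.24 ± 4.32 CPM per kilobase (SD, n = 3). In control, it was Pyy at 2890 ± 751, Insl5 at 938 ± 270, Pcsk1 at 12.5 ± 3.18 and Nts at 0 CPM per kilobase. In neither group did genes next to each other in this order overlap between libraries. Pyy was thus the most abundant of the 4 per length in both groups, while Insl5 was last in PFOA and next to Pyy in control.

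Ratios within a library do not depend on the scaling between libraries. Nts made up 39.7%, 43.8% and 33.2% of the summed Nts, Insl5 and Pyy counts in PFOA replicates 1, 2 and 3 (95% Clopper-Pearson intervals 35.1% to 44.4%, 40.6% to 47.1% and 29.9% to 36.6%). In the control libraries it was 0 of 5818, 4847 and 5150 counts, and a limit of 3 counts, which is not the Clopper-Pearson bound, allows shares of up to 0.0516%, 0.0619% and 0.0583%. Insl5 made up 0.917%, 1.21% and 2.25% in PFOA and 16.5%, 36.3% and 30.7% in control. These intervals and limits cover counting error only. Since every PFOA library had Nts counts and no control library had one, a separation of the Nts share was fixed in advance.

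The balance of the L cell hormones Pyy and Insl5 did not overlap between the groups. The Pyy count was 57.7, 43.5 and 27.9 times the Insl5 count in PFOA replicates 1, 2 and 3 and 5.06, 1.75 and 2.25 times in control replicates 1, 2 and 3, with 0.5 added to each count. The difference of the log2 ratio was 3.92 (5.37 ± 0.53 in PFOA and 1.44 ± 0.80 in control, SD, n = 3 each; two-sided exact permutation p = 0.1, and 0.12 after Benjamini-Hochberg adjustment over 6 such comparisons). Without PFOA replicate 1 the difference was 3.68. The smallest p that 3 libraries against 3 can give is 0.1, so that none of the 6 comparisons could pass the threshold.

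Gcg, the gene of proglucagon and thus of the glucagon-like peptides of L cells, gives a further point of comparison. It had 351, 377 and 540 counts in PFOA, against 859, 1121 and 1049 in control, 2.32-fold lower (edgeR adjusted p = 0.00205 at a log2 fold change of -1.22 and an SE of 0.23, n = 3 per group). Of the 3 L cell hormone genes, Insl5 thus had the largest and Gcg the smallest reduction. There were 0.738, 1.33 and 0.956 Pyy counts for each Gcg count in PFOA, against 5.65, 2.75 and 3.40 in control. For Insl5 there were 0.0128, 0.0305 and 0.0342 counts for each Gcg count in PFOA, against 1.12, 1.57 and 1.51 in control. For Pcsk1, whose product cuts proglucagon, there were 1.12, 1.93 and 1.21 counts for each Gcg count in PFOA, against 0.123, 0.16 and 0.153 in control. Since Pcsk1 was higher and Gcg lower in PFOA, each without overlap, a separation of their ratio was fixed in advance. The groups did not overlap in any of these ratios, and each had the smallest possible p (two-sided exact permutation p = 0.1, adjusted 0.12; differences of the log2 ratio of -1.94 for Pyy, -5.87 for Insl5 and 3.26 for Pcsk1).

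Ppy, which encodes pancreatic polypeptide, a hormone of the same family as peptide YY, lies 5356 bases from Pyy on the same strand of chromosome 11. It had 15, 65 and 22 counts in PFOA, against 307, 520 and 537 in control, 13.0-fold lower (edgeR adjusted p = 0.000781 at a log2 fold change of -3.71 and an SE of 0.54, n = 3 per group). Without PFOA replicate 2, which had the most PFOA counts, its log2 fold change was -4.49. The Pyy to Ppy count ratio of 16.7, 7.64 and 23.0 in PFOA overlapped with 15.8, 5.93 and 6.64 in control (difference of the log2 ratio 0.75; two-sided exact permutation p = 0.2, also after adjustment). Both neighbours were thus called lower in PFOA, as were 50.0% of all tested rows, and their ratio overlapped between the groups. The overlap rested on control replicate 1, at 15.8, since control replicates 2 and 3 lay below all PFOA libraries. Strand use in counting is not given in the sources used here, but the rows of the 2 genes do not overlap.

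A list of 28 gut hormone genes had 8 listed rows, of which 4 were called higher and 4 lower in PFOA, with a median log2 fold change of 0.33, against -0.03 over all tested rows. Together with Nts, the rows of Sct, Sst and Gal were higher. Sct, the secretin gene, had 306, 143 and 113 counts in PFOA, against 45, 24 and 21 in control, 6.44-fold higher, and its log2 value of 2.72 was 2.03 when PFOA replicate 1 was left out. Sst, the gene of somatostatin, which inhibits the release of other hormones, had 149, 696 and 776 counts in PFOA, against 71, 190 and 180 in control. PFOA replicate 1 lay among the control libraries for Sst once scaled, at 79.9 CPM against 34.6 to 91.9 CPM in control. The Sst call (log2 fold change 1.89, edgeR adjusted p = 0.0154) ended without control replicate 1 (1.44, edgeR adjusted p = 0.067). Gal, the galanin gene, had 37, 161 and 138 counts in PFOA, against 16, 29 and 33 in control, 4.44-fold higher.

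Summed over these 8 rows, hormone counts were lower in PFOA, at 694 to 1110 CPM against 3160 to 3470 CPM in control. The make-up of the counts of these 8 rows differed as well. The rows had been selected to differ and did so in both directions, so that some shift of shares was fixed in advance. Hormone genes without a row are not part of the sum, and the shares are not those of all gut hormones. Pyy held 21.0% ± 0.85 of the hormone counts in PFOA and 55.1% ± 11.7 in control (SD, n = 3 each). Insl5 held 0.51% ± 0.226 in PFOA and 20.8% ± 6.56 in control. Nts held 13.8% ± 2.97 in PFOA and 0% in control, where the limit of 3 counts is at most 0.0446% of the hormone counts of a library. Gcg held 21.9% ± 5.58 in PFOA and 14.6% ± 2.34 in control. Its shares overlapped between the groups, at 16.0% to 27.1% in PFOA and 12.1% to 16.7% in control. In the PFOA libraries, no single one of the 8 rows thus held the place that Pyy had in control. PFOA replicate 1 was particular in its Sct share of 23.6%, against 6.08% and 4.73% in PFOA replicates 2 and 3, and in its Sst share of 11.5%, against 29.6% and 32.5%.

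**Figure D2:**
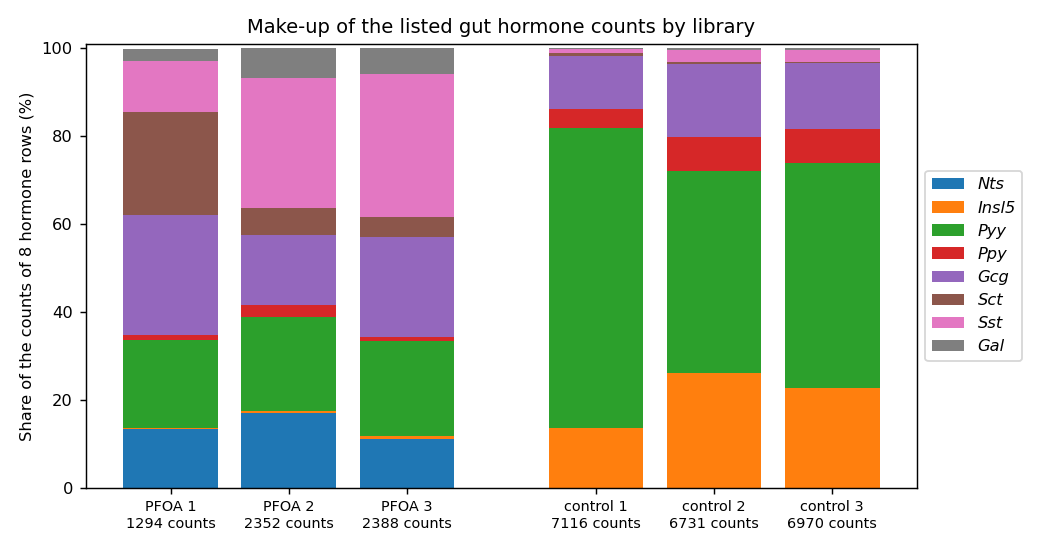
Share in percent of the summed counts of the 8 listed gut hormone rows held by each hormone, as stacked bars for the 3 PFOA libraries (left) and the 3 control libraries (right), with the summed count under each bar. Pyy and Insl5 fill most of the control bars, while the PFOA bars are divided among Nts, Pyy, Gcg, Sct, Sst and Gal.

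Pcsk1 was 1 of 2 listed rows among 17 genes of prohormone processing. The other was Pcsk5, a convertase of the same family found in many tissues, at 9234, 8355 and 8186 counts in PFOA against 1422, 5226 and 4148 in control, 2.46-fold higher. Its call ended without control replicate 3 (edgeR adjusted p = 0.0645), and its deposited gene model of 103380 bases is far longer than that of Pcsk1 at 5604 bases. Both rows were called higher, as were 50.0% of all tested rows. Of 25 secretory granule genes, 3 had a row. Rph3al, a rab effector of granule exocytosis, was 3.08-fold higher and Slc18a2, the vesicular monoamine transporter, was 2.64-fold higher in PFOA. Rab3b, a small GTPase of secretory vesicles, was 5.42-fold lower.

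The transcription factors that set the fate of enteroendocrine cells, a list of 29 genes, had 6 listed rows. All 4 of those tested were called lower in PFOA, as were 50.0% of all tested rows, with a median log2 fold change of -2.37. The other factors of the list have no row, and their levels were not analysed here. Neurog3, the factor that starts the enteroendocrine lineage, had 12, 7 and 5 counts in PFOA, against 24, 18 and 20 in control (log2 fold change -1.30, edgeR adjusted p = 0.0181). Its call ended without PFOA replicate 2 (edgeR adjusted p = 0.0765) and without PFOA replicate 3 (edgeR adjusted p = 0.0769). Isl1, a homeobox factor of hormone cells, was 6.13-fold lower, and Foxa2, a forkhead factor of gut endoderm, was 4.44-fold lower at 159, 132 and 162 counts in PFOA against 832, 585 and 658 in control. Onecut2, another factor of the list, was too low to be tested, with 6, 22 and 21 counts in PFOA and 3, 1 and 1 in control.

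Receptors for the hormones and peptidases that break them down, a list of 36 genes, had 10 listed rows, of which 5 were called higher and 5 lower (median log2 fold change 0.23). The neurotensin receptor Ntsr1 had 22, 29 and 28 counts in PFOA, against 7, 4 and 7 in control, 4.52-fold higher (edgeR adjusted p = 0.00116 at a log2 fold change of 2.15 and an SE of 0.35, n = 3 per group). Ntsr1 and Nts were thus both higher, as were 50.0% of all tested rows, and a link between them was not tested. The receptors of peptide YY and related peptides were split. Npy1r had 35, 43 and 44 counts in PFOA, against 263, 292 and 314 in control, 6.91-fold lower, whereas Npy2r had 117, 79 and 150 counts in PFOA, against 21, 24 and 28 in control, 4.89-fold higher. Rxfp4, the receptor of the Insl5 peptide, has no row and was not analysed here.

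The receptor of glucagon-like peptide, Glp1r, had 29, 47 and 38 counts in PFOA, against 3, 22 and 5 in control (log2 fold change 1.94). Its call ended when control replicate 1 or 3 was left out (edgeR adjusted p = 0.0751 or 0.0933), and its log2 fold change was 3.21 without control replicate 2. Mme, the peptidase neprilysin, was 3.33-fold lower and Ace, angiotensin-converting enzyme, was 2.98-fold lower; both cleave neurotensin among other peptides. Of the serotonin receptors, Htr4 was 4.40-fold and Htr3a 2.15-fold lower, while Htr2b was 3.49-fold and Htr7 2.95-fold higher. The Htr7 call ended when control replicate 1 or 3 was left out (edgeR adjusted p = 0.0549 or 0.0743).

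Sensors through which enteroendocrine cells detect nutrients, a list of 28 genes, had 6 listed rows, of which 2 were called higher and 4 lower (median log2 fold change -2.11). Ffar4, a receptor for long-chain fatty acids, was 2.54-fold higher at 485, 876 and 609 counts in PFOA against 310, 262 and 228 in control. Gpr119, a receptor for lipid amides of L cells, was 4.75-fold lower, at no more than 4 counts in a PFOA library. Slc15a1, the peptide transporter of absorptive cells, was 14.3-fold lower. A row that merges Olfr78, a receptor for short-chain fatty acids, with Olfr560 was 3.99-fold lower. Abcc8, a subunit of the ATP-sensitive potassium channel, had 70, 248 and 226 counts in PFOA, against 92, 48 and 64 in control, and its groups overlapped. Its call (log2 fold change 1.42, edgeR adjusted p = 0.0191) ended without any one of control replicates 2 and 3 or PFOA replicates 2 and 3 (edgeR adjusted p = 0.0505 to 0.0764).

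**Figure D3:**
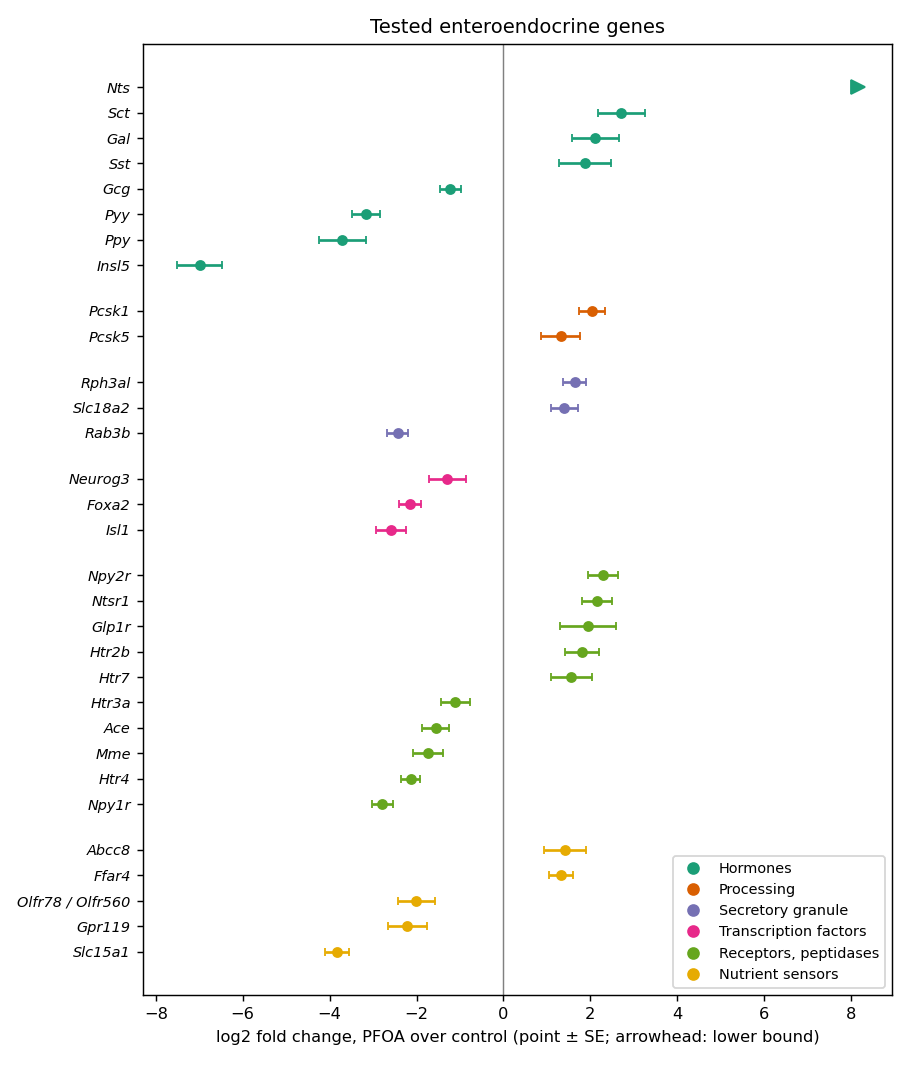
Log2 fold change of PFOA over control, with its standard error (n = 3 per group), for 31 of the 33 tested rows of the 6 enteroendocrine lists, coloured by list; the arrowhead of Nts marks its lower bound of 8.17. Hormones, receptors and sensors lie on both sides of 0, and the transcription factors shown lie below it.

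Over the 6 lists, 35 rows were listed of 163 genes, and 15 were called higher and 18 lower among the 33 tested. Over all tested rows of the table, 804 were higher and 804 lower. The median log2 fold change was -1.22 in the lists and -0.03 over all tested rows. Since the selection left a gap around 0, medians of evenly split lists turn on a few rows and measure no general shift. Without the 4 genes the counts were 13 higher and 16 lower. Genes outside the table may have changed or not. The lists were chosen with earlier results of these data known.

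Genes whose profile over the 6 libraries was most like that of 1 of the 4 genes were found by the root mean square difference between log2 CPM values (prior count 2), each centred on its own mean, among 981 other tested rows with a single descriptive gene name. For Nts they were the transcription factor Osr2 (difference 0.585), Malrd1, a gene known in mice to act on bile acid balance (0.649), and the carboxylesterase Ces1g (0.651). Osr2 had 1363, 2179 and 3251 counts in PFOA, against 35, 13 and 13 in control. None of these 3 rows was at 0 in control, where Nts was.

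For Insl5 the rows most alike were Atp12a, a proton pump of colon epithelium (0.472), Fxyd4, a regulator of the sodium-potassium pump (0.64), and Spink1, a protease inhibitor (0.677). Atp12a is also on the list of distal hindgut markers described below. Fxyd4 had no count in PFOA and 282, 191 and 207 counts in control, at least 220-fold lower. For Pyy they were the potassium channel gene Kcnf1 (0.184), the calcium-activated chloride channel gene Ano1 (0.203) and Pdzk1ip1 (0.283). Ano1 had 2289, 4740 and 4550 counts in PFOA, against 30662, 21967 and 26918 in control, with the same library lowest in PFOA and the same library highest in control as for Pyy.

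For Pcsk1 the rows most alike were Itga2, an integrin subunit (0.14), the membrane mucin Muc3a (0.18) and Aldh1a1, a retinaldehyde dehydrogenase (0.182). Itga2 had 2218, 3680 and 3899 counts in PFOA, against 665, 847 and 845 in control. No enteroendocrine gene of the lists was among these 12 rows. All rows of the table had been selected to differ between the same groups, so that a small difference here describes similar size and spread and nothing more.

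**Figure D4:**
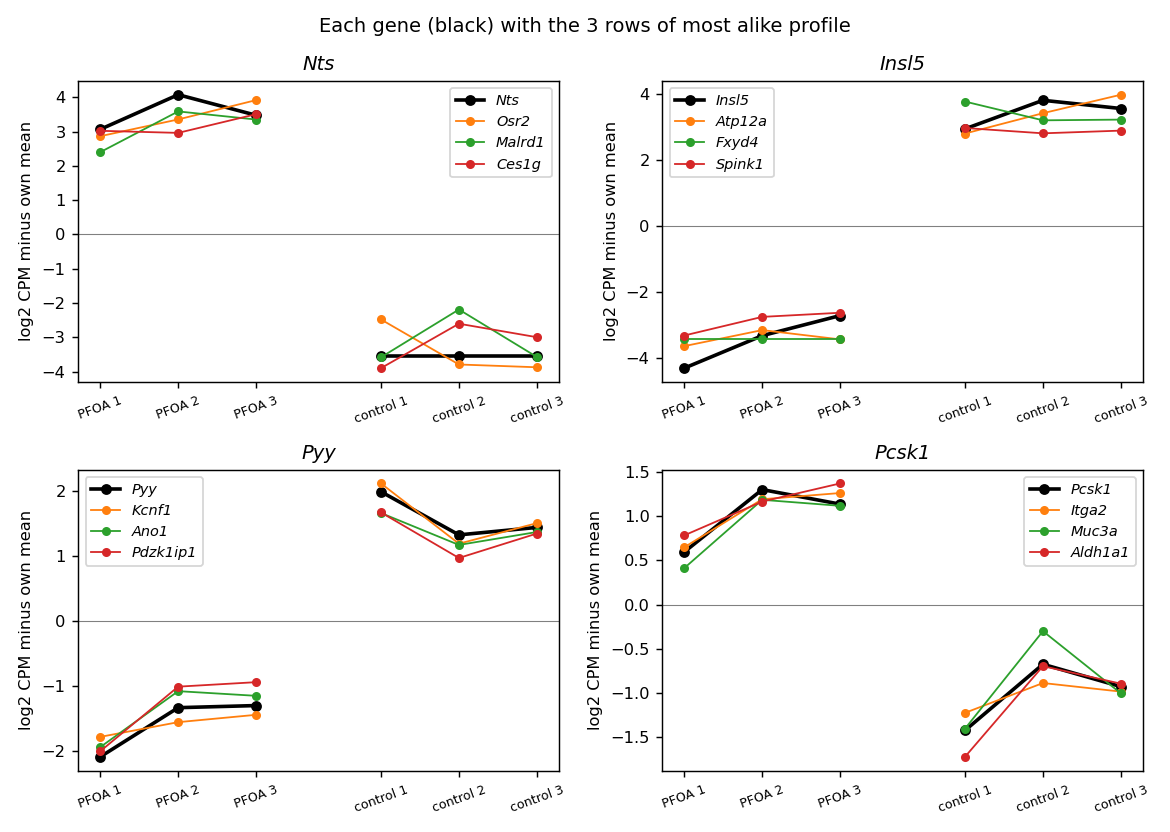
Log2 CPM minus the row's own mean in each library for Nts, Insl5, Pyy and Pcsk1 (black) and the 3 rows most like each (colours), PFOA libraries at the left and control libraries at the right; lines only join the points of a row within a group. Pyy and Kcnf1 differ by 0.184 and Pcsk1 and Itga2 by 0.14 (root mean square, log2), against 0.585 for Nts and Osr2.

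Listed markers of gut position also differed between the groups. All rows of the table had been selected to differ, and 50.0% of tested rows were called in each direction. The lists of these markers were chosen with earlier results of these data known, so that their counts describe the listed rows only. Of 19 genes that mark the distal hindgut, 12 had a row and all 12 were called lower in PFOA, with a summed level of 388 to 585 CPM in PFOA and 15500 to 22000 CPM in control. Hoxb13, the homeobox gene of the hindgut end, had 0, 6 and 3 counts in PFOA, against 9884, 5730 and 7988 in control, and Evx2 and the row with Hottip were at 0 in all PFOA libraries. Best2, an anion channel of distal colon, was 7.97-fold lower and Aqp4, a water channel, 23.9-fold lower. Of 27 genes that mark the ileum and proximal gut, 13 had a row and all 13 were called higher, with a summed level of 20000 to 33700 CPM in PFOA and 2090 to 3790 CPM in control. That count depends on the list a gene was put in. Slc15a1, the peptide transporter of absorptive cells, was counted with the sensors and was 14.3-fold lower. Isx, an intestinal homeobox factor, was 39.0-fold higher, Fabp2, the fatty acid binding protein of enterocytes, 14.4-fold, and Nr1h4, the bile acid receptor, 3.28-fold. Reg3b, an antimicrobial lectin, was also higher (log2 fold change 8.39, between 6.99 without PFOA replicate 1 and 11.35 without control replicate 1). The log2 fold change of Isx was 5.27, between 4.63 without control replicate 1 and 6.57 without control replicate 2, and that of Fabp2 was 3.88, or 4.86 without control replicate 2. Since the labels give no part of the colon, a difference in sampled position and an effect of PFOA cannot be told apart for Nts, Insl5, Pyy or Pcsk1.

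Markers of the labelled tissue were present, with 6 of 21 colon epithelium genes listed, 3 called higher and 3 lower, at a summed level of 27300 to 82700 CPM in PFOA and 30100 to 52200 CPM in control. The carbonic anhydrase gene Car1 was 6.55-fold higher and Car4 2.55-fold lower, and for Car1 the log2 value of 2.77 was 1.94 when PFOA replicate 1 was left out. Slc26a3, a chloride exchanger, was 4.80-fold lower (log2 fold change -2.21, or -3.00 without PFOA replicate 1).

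Nts, Pcsk1, Sst and Gal are also expressed by neurons, and of 20 markers of enteric neurons and 11 of tuft cells none had a row, so that their levels were not analysed here. Of 8 markers of enteric glia, Gfap had a row and was 3.11-fold higher, at 49.9 to 60.7 CPM in PFOA and 16.0 to 18.6 CPM in control. Ppy and Pyy are also expressed in the pancreas. Of 19 pancreas markers, 4 had a row: Zg16, the acinar gene Cpb1 at 0, 0 and 2 counts in PFOA and 5, 7 and 4 in control, the protease gene Cela1, 18.5-fold lower, and Reg1, at 1, 2 and 4 counts in PFOA and 0 in control. Neither insulin gene was listed. Summed, the 4 rows were at 8490 to 9160 CPM in PFOA and 21500 to 26700 CPM in control, of which Zg16, a gene shared with goblet cells, held 8790 CPM in PFOA and 23100 CPM in control on average.

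Of 11 goblet cell markers, 6 genes had 8 rows, 4 called higher and 4 lower, at a summed level of 150000 to 332000 CPM in PFOA and 144000 to 264000 CPM in control. Muc2, the gel-forming mucin, has 3 of the 4 higher rows, so that the count by row is not a count by gene. These rows were 3.21-fold, 3.05-fold and 3.06-fold higher, and the groups overlapped in the row at 3.05-fold. The call of the first of them ended when control replicate 1 or 3 was left out (edgeR adjusted p = 0.0617 or 0.0512). Clca1, a secreted goblet cell protein, was 5.42-fold lower. A row that merges Fcgbp, another such gene, with 9530053A07Rik was 2.33-fold lower, and that call ended without PFOA replicate 3 (edgeR adjusted p = 0.0517). The part of these cell types in the levels of the 4 genes was not tested.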

How the data were processed

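The 6 libraries were made with a SMARTER mRNA-Seq kit from colon RNA, per the labels' protocols. HISAT2, HTSeq and the mm10 build are named in the submitters' processing notes. The sources used here give neither strand use nor how multi-mapping reads were counted, nor how the rows were selected. The authors deposited raw read counts for 2033 gene rows, 1439 of them with identifiers of assembled loci, and a gene model length for each row. Count columns were matched to samples by the labels.

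The 4 genes and the gene lists were chosen with earlier results of these data known. PFOA was compared with control in edgeR 4.0.16 under R 4.3.3 by the two-sided quasi-likelihood test (glmQLFit, glmQLFTest), with no covariate, on the 1608 rows that filterByExpr kept, scaled by TMM and adjusted by Benjamini-Hochberg over these rows. The largest adjusted p was 0.0408, and no row of the table had a log2 ratio between -1.24 and 0.741 when counts were scaled by the listed totals alone, without TMM. An SE is the size of the log2 fold change over the square root of F. Plain folds are ratios of summed counts over TMM-scaled totals. On simulated counts for the PFOA and control comparison (1550 rows tested), 84% of the rows altered 4-fold, 25.5% of the rows altered 2-fold and 6 rows without a change were called. Of the simulated rows, 1352 had no change, whereas all tested rows of the table were called, so that these rates do not carry over to it.

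Rows of the enteroendocrine lists were named, and for other lists up to 4 rows among the most abundant, beside the 3 rows most like each of the 4 genes. Evx2 and Hottip were singled out with their values known. A few list members enter the counts and are not reported by name. Promoter windows are those of RefSeq. DESeq2 1.42.0, other scalings and filters, the replicate number as a block and each library left out were tried as alternatives. Replicates did not agree within sampling noise (smallest chi-square per degree of freedom 19.3).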

Additional observations from a re-analysis of the deposited data

How the results depend on the processing

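The direction and the call of Nts, Insl5, Pyy and Pcsk1 were the same under all 12 alternatives: DESeq2, median-ratio (RLE) size factors, library totals without TMM, no filter, a filter of 1 CPM in 3 libraries, the replicate number as a block, and each of 6 libraries left out. With a library left out, the log2 fold change ranged from -7.48 to -6.66 for Insl5, -3.35 to -2.97 for Pyy and 1.72 to 2.17 for Pcsk1 (largest edgeR adjusted p 0.00701), and the fitted value of Nts from 10.83 to 11.34. DESeq2 gave a fitted value of 10.53 for Nts, against 11.13 with edgeR, both of which depend on how a group at 0 is handled. With the replicate number as a block it was -7.07 for Insl5, -3.16 for Pyy, 2.03 for Pcsk1 and 11.12 for Nts. The count of rows called was 1608, and between 1531 and 1663 with a library left out, 1579 with the block, 1601 with DESeq2, 1582 with library totals, 1914 with the filter of 1 CPM and 2031 with no filter. Of the 35 enteroendocrine rows, 33 were called, between 30 and 35 with a library left out and 32 with the block, which ended the call of Abcc8 (edgeR adjusted p = 0.0652).

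Same-numbered libraries of the 2 groups did not deviate together: the deviations from the group means correlated at 0.114, -0.031 and 0.102 for replicates 1, 2 and 3, so that the numbers are not taken as pairs. Library totals without TMM shift all log2 fold changes by a median of -0.204, and RLE by -0.052. The difference of the Pyy to Insl5 log2 ratio was 3.84 with 1 count added and between 3.61 and 4.37 with a library left out, and that of the Nts share between 36.4 and 41.8 percentage points. Among 57 other named results, 16 of 684 values under alternatives lost their call, in 8 genes, and none turned direction. Low counts limit Onecut2, Neurog3, Gpr119 and the PFOA level of Insl5.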
